A study of Mus musculus with 2 samples.

Results

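The genes described here are the nuclear-encoded genes of the mitochondrial respiratory chain and of ATP synthase. They were taken by symbol: every gene whose symbol begins with Atp5, Cox4i, Cox5, Cox6, Cox7, Cox8, Uqcr, Ndufs, Ndufv, Ndufc, Ndufb or Ndufa, and Sdha, Sdhb, Sdhc and Sdhd, without entries marked "-ps". The rule found 93 of the 32285 genes counted. By the known roles of their products they fell into 36 subunits and 8 assembly factors of complex I, 4 subunits of complex II, 8 of complex III, 11 of complex IV, 17 of ATP synthase (complex V), 1 supercomplex factor and 8 isoforms known from particular tissues. The rule left out Ndufb1-ps, which held 303 CPM in the library from Trem2-/- marrow and 261 CPM in that from Trem2+/+ marrow. CPM, the unit of level used throughout, is the number of a gene's UMIs (unique molecular identifiers, each counting 1 captured transcript) out of every 1000000 UMIs.

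The respiratory chain lies in the inner mitochondrial membrane. Complex I takes electrons from NADH and complex II takes them from succinate; both pass them to ubiquinone, complex III passes them on to cytochrome c, and complex IV hands them to oxygen. Complexes I, III and IV pump protons, and ATP synthase makes ATP as the protons flow back. The chain is built from 2 genomes, since the mitochondrial DNA encodes 13 of its subunits and the nucleus encodes the rest, together with the factors that assemble them. Neutrophils are known to rely mostly on glycolysis and to hold few mitochondria, whereas tissue macrophages, lymphocytes and endothelium hold more.

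The cells came from the livers of male C57Bl6/J mice that had been lethally irradiated and given marrow from Trem2-/- or Trem2+/+ littermate donors. After 6 weeks of recovery both groups ate a diet without methionine and choline (MCD) for 4 weeks, which produces steatohepatitis, so the wild-type marrow group carries the diet and the irradiation too. Viable cells positive for the leukocyte marker CD45 were sorted from 4 mice per group, combined in equal parts and captured with droplet 5' chemistry. Each group is therefore 1 library of pooled animals. Differences between the libraries have no replicate check, and no test between genotypes is possible. The marrow genotype applies to cells that derive from the graft; recipient cells, such as endothelium and any resident macrophages that outlived irradiation, carry the recipient's own Trem2 gene. In every pair of values below, the Trem2-/- marrow library comes first and the Trem2+/+ marrow library second.

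The libraries held 6362 and 7012 barcodes with 25288032 and 27238586 UMIs, of which 5974 and 6596 cells were kept with medians of 2931.5 and 2492 UMIs. Trem2 itself stood at 6.19 and 204 CPM (154 and 5478 UMIs), in the order of the labels. The libraries shared 56 barcode sequences. Clustering gave 10 main classes, each with 100 or more cells from each of the libraries, and some smaller ones; they are named "-like" from marker genes, and 3 clusters stayed unnamed. Ptprc, the gene for CD45, was at 60.1 and 84.7 CPM in endothelial-like cells against 1230 and 1118 in T cell-like cells, so the endothelial-like cells went against the sort label. Levels were computed from the UMIs summed over a class, and intervals are 95% exact Poisson or binomial intervals. They describe the error of counting UMIs alone and say nothing of how mice differ. UMIs were read at transcript ends, and levels are compared within a gene, not from gene to gene.

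Of the 93 genes, 65 averaged at least 20 CPM in each of the 10 main classes and 83 did so in at least 1. All 8 subunit genes of complex III, all 11 of complex IV, all 17 of ATP synthase and Cox7a2l reached that level everywhere, as did 25 of 36 complex I subunits and 3 of 4 of complex II. None of the 8 complex I assembly factors did. The 10 genes below it in all main classes were Ndufaf1, Ndufaf5, Ndufaf6 and 7 of the 8 tissue-restricted isoforms. For 64 of the 83, the class with the highest level was the same in both libraries. Among the genes compared between classes, the lowest level was in neutrophil-like cells for 76 of 83 in both libraries. For neither the 64 nor the 76 is the same count over all genes given, and a member could enter the 83 through any other class. Neutrophil-like cells were low over all genes too. The median of 6106 genes averaging at least 20 CPM over the classes was log2 -0.72 and -0.65 against the other classes.

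Promoter sequence was examined because most of these genes, 65 of the 93, averaged at least 20 CPM in every main class. RefSeq windows on GRCm38.p6 (250 bases before to 50 after the gene start) were matched by symbol for 75 of the 93. Some genes had more than 1 window, and a gene was counted if any of its windows held a match. The binding motif of NRF1 (nuclear respiratory factor 1) is 10 letters that read the same on both strands and stand in capitals in the sequences below. It occurred in 7 of the 75 genes (9.33%), against 290 of all 27025 genes with a window (1.07%). The 7 were Atp5g2, Atp5k, Cox6a1, Ndufa11, Ndufaf4, Ndufaf5 and Uqcrc1. Its shorter core GCATGCGC, which lies inside the longer motif, was found in 12 of the genes (16%, against 3.05%). The YY1 letters AAGATGGC were in 10 (13.3%, against 3.19%) and the GABPA letters CCGGAAGT in 5 (6.67%, against 4.31%), each on either strand. The CG count was taken from the window with the most where a gene had several. It had a median of 20 in the 71 matched genes outside the tissue-restricted isoforms, 8.5 in the 4 matched isoforms and 8 over all genes. A match is a stretch of letters and not evidence of binding. Of the 7 sites, those of Cox6a1 and Ndufaf4 are shown because no annotated untranslated region overlaps them; the genes are a complex IV subunit and a complex I assembly factor whose levels are given below. The NRF1 motif is in capitals, with 20 bases on each side, read 5′ to 3′ on the gene's strand; the Cox6a1 stretch is at chr5:115349091-115349140 on the minus strand, with the motif 152 bases before the gene start, and the Ndufaf4 stretch at chr4:24897950-24897999 on the plus strand, with the motif 103 bases before it.
Cox6a1: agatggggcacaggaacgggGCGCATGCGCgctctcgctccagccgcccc
Ndufaf4: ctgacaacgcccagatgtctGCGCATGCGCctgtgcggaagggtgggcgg

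Neutrophil-like cells stood far below the other cell types. The 93 genes together took 6673 and 7404 CPM in neutrophil-like cells (intervals 6528 to 6821 and 7259 to 7551). That was 33.6% and 36.4% of the median of the other 9 main classes. B cell-like cells came next at 13752 and 14219, or 69.3% and 69.9% of their median. T cell-like cells (18282 and 18325), cDC2-like cells (18290 and 18538), Ly6C-high monocyte-like cells (19844 and 19997), cDC1-like cells (19843 and 20328) and NK or ILC1-like cells (20612 and 20931) lay close together, and the order of the monocyte-like and cDC1-like classes differed between the libraries. Macrophage-like cells followed at 21020 and 21912. Kupffer-like cells (22504 and 24288) and endothelial-like cells (23417 and 24124) were at the top, and their order turned between the libraries. The Kupffer-like rank depended on which cells the class took in: when all deposited barcodes were clustered, it also held a cluster of 464 and 545 cells with a median of 1034 UMIs and lay below the median of the other classes (log2 -0.43 and -0.48). Depth per cell differed between classes, from medians of 1821 UMIs in neutrophil-like to 11963.5 in cDC1-like cells. Cells with at least 1000 UMIs were also thinned to 1000 each, and cells with fewer were left out. In the T cell-like class, for example, 1238 of 1562 and 815 of 1003 cells remained. The median share per thinned cell was 0.6% in neutrophil-like cells of both libraries, 1.4% in B cell-like cells and between 1.8% and 2.4% in the other 8 classes.

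**Figure D1:**
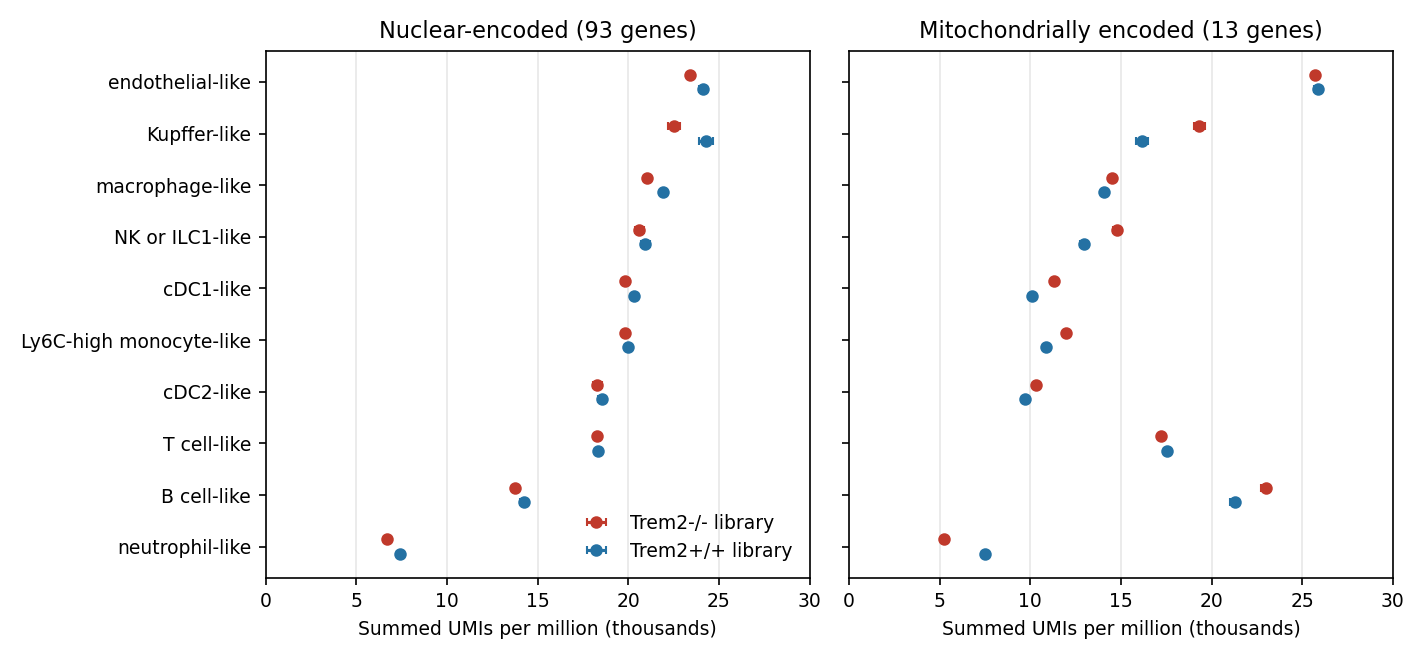
Summed level of the 93 nuclear-encoded genes and of the 13 mitochondrially encoded subunits (in units of 1000 CPM) in the 10 main classes of both libraries, with exact Poisson intervals as bars. Neutrophil-like cells are lowest in both panels, and B cell-like cells are second lowest for the nuclear genes but high for the mitochondrial ones.

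The mitochondrially encoded subunits gave a different order of classes. They took 2.57% and 2.59% of UMIs in endothelial-like cells, 2.30% and 2.13% in B cell-like cells and 1.93% and 1.61% in Kupffer-like cells. Macrophage-like cells held 1.45% and 1.41%, and cDC1-like, cDC2-like and monocyte-like cells between 0.969% and 1.198%. Neutrophil-like cells were lowest at 0.525% and 0.749%. B cell-like cells were thus at 158.8% of the median of the other classes for the mitochondrial transcripts in the Trem2-/- library and at 69.3% for the nuclear ones. Among single clusters, numbers 15, 19 and 24, with medians of 755, 1135 and 654 UMIs per cell, had 5.04% to 5.87% of mitochondrially encoded UMIs and only 4461 to 6031 CPM of the nuclear genes, with the nuclear transcript Malat1 at 3.45% to 4.73%. Cluster 15 is part of the T cell-like class, and clusters 19 and 24 have no name. The other T cell-like clusters lay between 15913 and 20834.5 CPM.

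**Figure D2:**
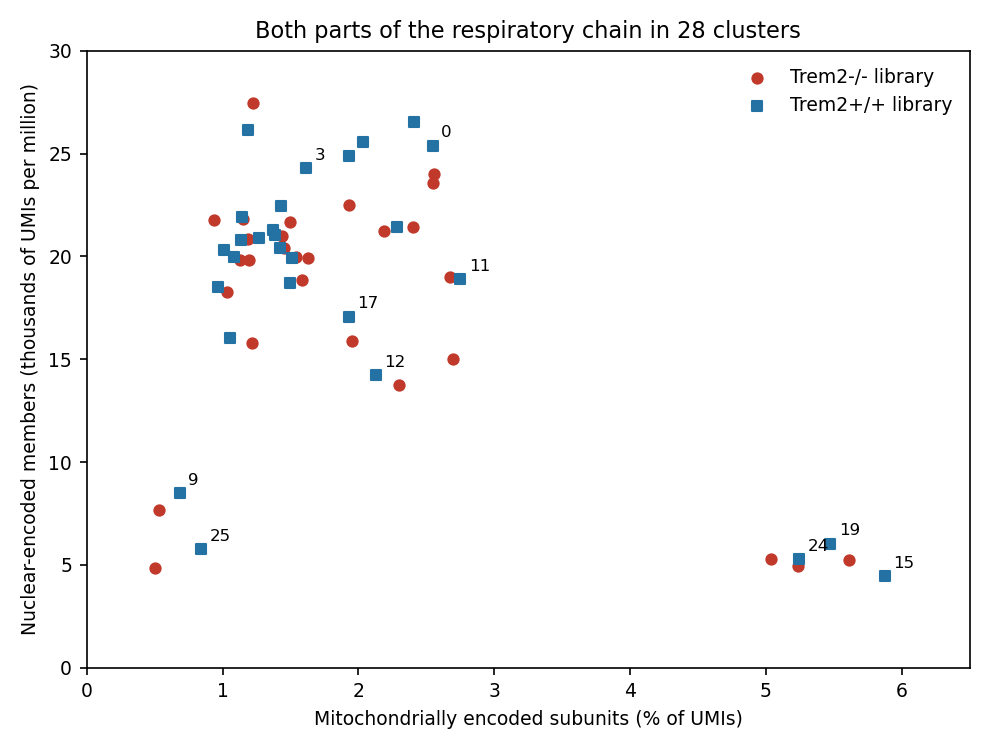
Each point is 1 of the 28 clusters in 1 library: the share of UMIs from the 13 mitochondrially encoded subunits (percent, x axis) against the summed level of the 93 nuclear-encoded genes (in units of 1000 CPM, y axis). Clusters 15, 19 and 24 stand at the lower right with above 5% mitochondrial UMIs, and the neutrophil-like clusters 9 and 25 at the lower left.

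Single genes were compared between classes by the log2 of the level in a class over the median of the other 9, calling a gene past 1.5-fold only where both libraries gave it. Of the members, 80 averaged at least 20 CPM over the classes. In neutrophil-like cells 75 of the 80 were at least 1.5-fold lower, where 48.1% of all 6106 genes at that level were, and 0 were higher (18.3% of all genes). The level filter is a mean over classes, which a gene can pass through the other classes. Of the 65 genes measured in every class, 60 were at least 1.5-fold lower. The share of all genes under that stricter filter is not given, and the 48.1% does not stand for it. The 5 exceptions among the 80 were Ndufa7 and Ndufb9 of complex I, Sdhd of complex II, Cox8a of complex IV and Atp5l of ATP synthase. Ribosomal protein genes, another set of housekeeping transcripts, took 4.01% and 4.72% of UMIs in neutrophil-like cells against 11.8% to 30.5% in the other 9 classes. With mitochondrial, ribosomal and haemoglobin genes taken out of the totals, the log2 level of the 93 genes against the other classes was -1.86 and -1.79 in neutrophil-like cells, and -1.57 and -1.46 with them in. Both neutrophil-like clusters were low: cluster 9 held 7693 and 8488 CPM and cluster 25 held 4867 and 5781.

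In B cell-like cells 28 of the 80 were at least 1.5-fold lower, beside 22.5% of all genes, and 0 were higher (17.6%). They included 7 of 11 complex IV subunits (Cox5a, Cox5b, Cox6b1, Cox6c, Cox7a2, Cox7b and Ndufa4), 9 of 17 ATP synthase subunits, 3 of 8 complex III subunits, 8 of 36 complex I subunits and Sdhd. Endothelial-like cells had 22 members at least 1.5-fold higher, where 26.7% of all genes were, and 1 lower, Atp5d, where 19.4% were. Kupffer-like cells had 15 higher (19.3% of all genes) and 0 lower (14.3%). Macrophage-like cells had 3 higher, Sdhb, Sdhc and Cox5a (16.1%), and 0 lower (8.75%). In cDC1-like cells 2 were higher, Ndufb11 and Uqcrfs1 (12.5%), and 0 lower (18.2%); in cDC2-like cells 1 was lower, Ndufaf4 (8.97%), and 0 higher (12.5%). Members passed 1.5-fold in both libraries in neither direction in monocyte-like (15.6% of all genes higher, 9.83% lower), NK or ILC1-like (20.1% and 15.2%) and T cell-like cells (18.5% and 17%). The shares for endothelial-like, Kupffer-like and macrophage-like cells lie near or under those of all genes, so the counts there describe which members were high and say nothing about the gene set as a whole.

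**Figure D3:**
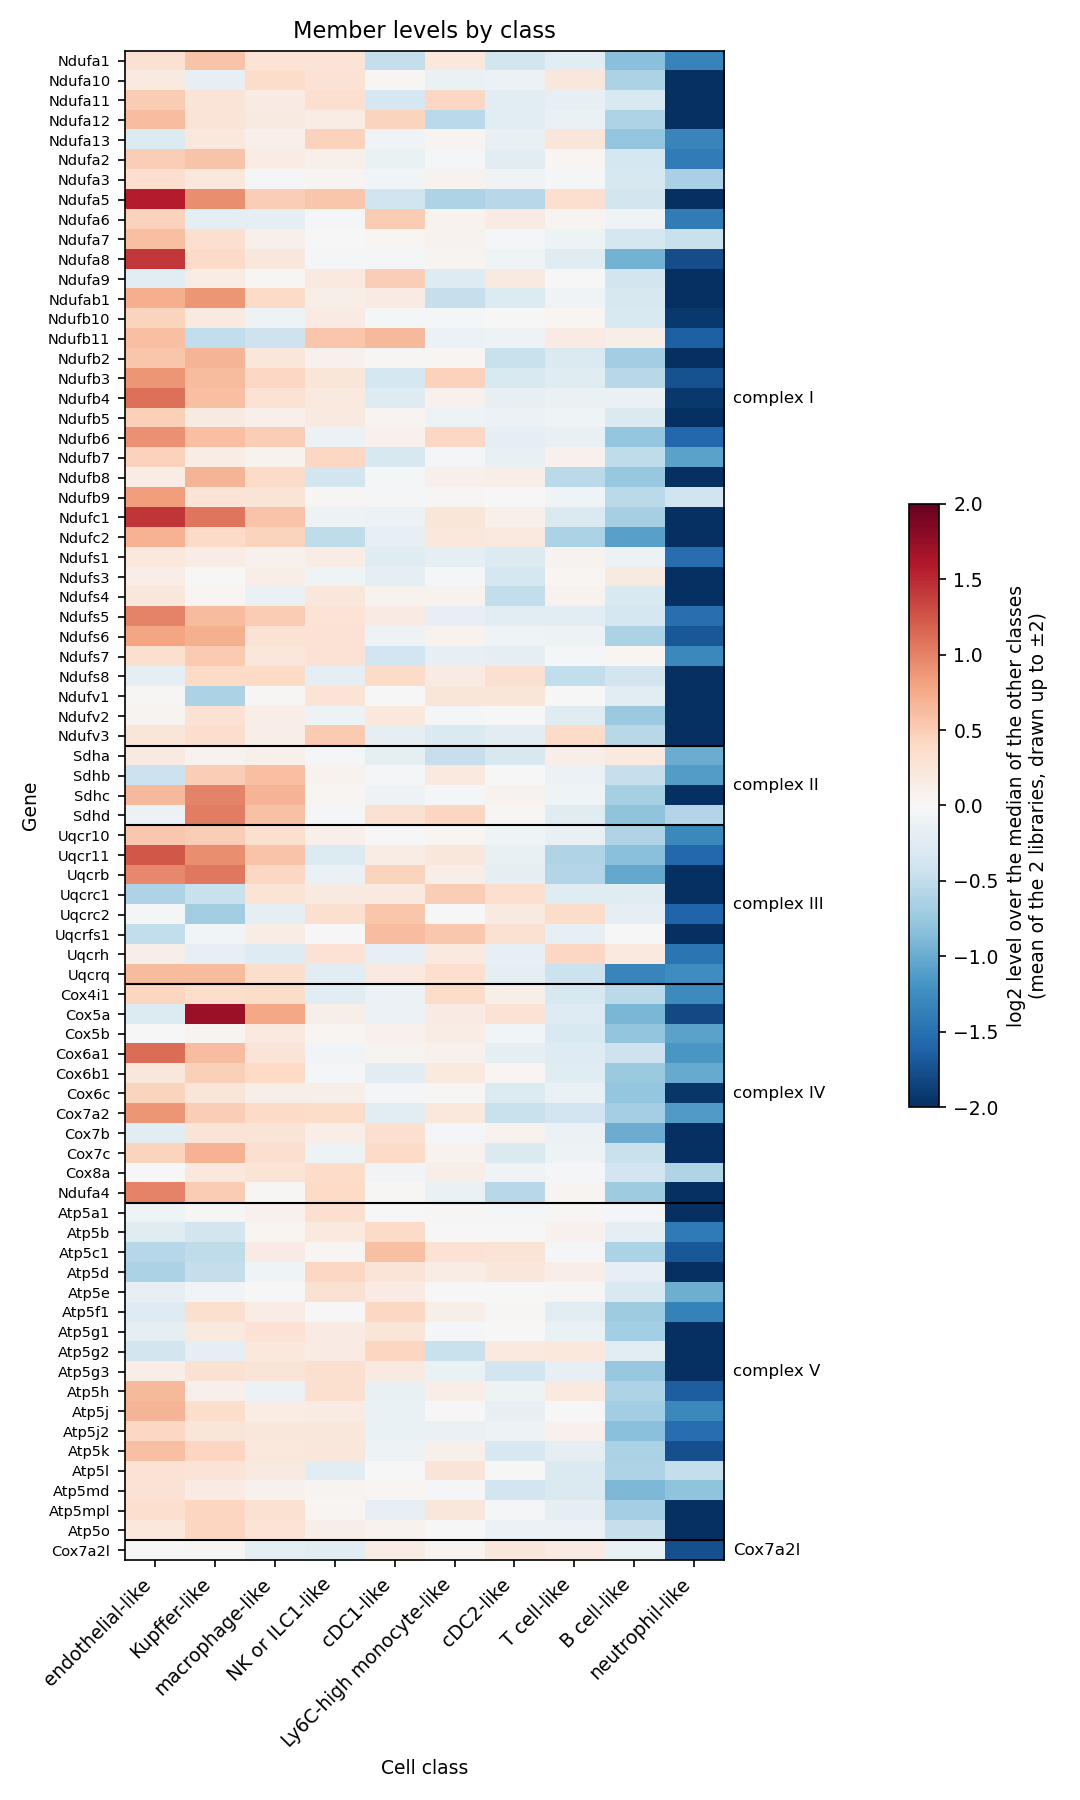
Level of each of 76 genes in each main class relative to the median of the other classes (log2, mean of both libraries, colour scale ending at -2 and 2), grouped by complex. The neutrophil-like column is low for nearly every gene and the B cell-like column for many of complexes IV and V, while the endothelial-like column is mixed, with Atp5d and Atp5c1 low beside high complex I subunits.

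Complex I is the largest complex of the chain, with core subunits that carry electrons from NADH to ubiquinone and many accessory subunits. Its subunit genes made up 30.5% of the members' UMIs in endothelial-like cells of both libraries and between 25.2% and 28.1% in the other 9 classes. The widest range over classes was that of Ndufa5, an accessory subunit of the arm that faces the matrix. Ndufa5 was at 234 and 235 CPM in endothelial-like cells, 136 and 167 in Kupffer-like cells, 131 and 103 in NK or ILC1-like cells, 64.3 and 65.3 in monocyte-like cells, and 9.13 and 8.99 in neutrophil-like cells. Endothelial-like cells were highest and neutrophil-like cells lowest in both libraries.

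Ndufa8, an accessory subunit on the intermembrane side of complex I, lies at chr2:36036326-36049406 (mm10, minus strand, 4 exons) and set endothelial-like cells apart most clearly after the level of the other members was taken into account. Its levels there were 267 and 279 CPM (intervals 249 to 285 and 256 to 304), from 853 and 521 UMIs. Kupffer-like cells held 103 and 173, macrophage-like cells 111 and 130, T cell-like cells 89.0 and 88.3, B cell-like cells 52.7 and 56.3 and neutrophil-like cells 28.2 and 33.7. The endothelial-like level was 2.71 and 2.63 times the median of the other classes, and its intervals did not touch those of any other main class. Both endothelial-like clusters shared it, with 274 and 286 in cluster 0 and 217 and 253 in cluster 11. Ndufc1, a small subunit of the membrane arm, had a like pattern at 299 and 286 in endothelial-like cells, 250 and 210 in Kupffer-like cells and 22.4 and 12.7 in neutrophil-like cells.

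The narrowest range among complex I subunits was that of Ndufa3, also an accessory subunit of the membrane arm. Ndufa3 ranged from 205 and 175 CPM in neutrophil-like cells to 395 and 345 in endothelial-like cells, with 234 and 241 in B cell-like cells. Neutrophil-like cells thus held 0.63 and 0.645 times the median of the other classes, a smaller gap than for nearly all the other members. Ndufa7 (189 and 227 in neutrophil-like cells, 205 and 234 in B cell-like cells) and Ndufb9 (117 and 127 against 106 and 116) were at similar levels in those 2 classes. Ndufb11, a membrane-arm subunit encoded on the X chromosome, was highest in cDC1-like cells at 289 and 315 and lowest, outside neutrophil-like cells, in Kupffer-like (125 and 172) and macrophage-like cells (143 and 168).

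The complex I assembly factors do not stay in the finished complex. They were sparse, with 46.5 to 258 CPM for all 8 together in the main classes. Ndufaf4 had the widest range: 41.0 and 37.5 CPM in endothelial-like cells, 28.2 and 41.7 in T cell-like cells, 26.5 and 25.8 in Kupffer-like cells, and 0 and 0.749 in neutrophil-like cells. Ndufaf8 was also highest in endothelial-like cells, at 93.6 and 93.3, and lowest in neutrophil-like cells at 13.3 and 15. Ndufaf7 went another way, with 30.6 and 25.4 in monocyte-like cells, 17.4 and 21.7 in neutrophil-like cells and 6.16 and 12.8 in B cell-like cells.

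Complex II is also an enzyme of the tricarboxylic acid cycle, and all of its subunits are encoded in the nucleus. Sdha, the flavoprotein that oxidises succinate, varied least: 103 and 113 CPM in B cell-like cells, 96.7 and 103 in Kupffer-like cells, 110 and 103 in endothelial-like cells and 47.3 and 54.0 in neutrophil-like cells. The membrane anchor Sdhc varied most, with 106 and 99.6 in Kupffer-like cells, 83.9 and 78.3 in endothelial-like cells, 81.8 and 84.1 in macrophage-like cells, 29.4 and 37.5 in B cell-like cells and 6.64 and 13.5 in neutrophil-like cells. The iron-sulfur subunit Sdhb was highest in macrophage-like cells (192 and 205), followed by Kupffer-like cells (172 and 194), and stood at 98.6 and 98.1 in endothelial-like cells. Sdhd, the other anchor, was highest in Kupffer-like cells at 148 and 131, with 39.7 and 39.8 in B cell-like cells and 53.1 and 40.5 in neutrophil-like cells. Complex II as a whole took 523 and 527 CPM in Kupffer-like cells, 476 and 496 in macrophage-like cells and 356 and 345 in endothelial-like cells. Endothelial-like cells, at the top for complex I, were therefore in the middle of the classes for complex II.

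In complex III, Uqcrb, a small accessory subunit, had the widest range. It was at 489 and 560 CPM in Kupffer-like cells, 493 and 489 in endothelial-like cells, 326 and 346 in macrophage-like cells, 135 and 137 in B cell-like cells and 37.3 and 27.0 in neutrophil-like cells. Uqcr11, an accessory subunit, was highest in endothelial-like cells at 456 and 467. Uqcrq, the narrowest of complex III, was lowest in neutrophil-like cells of the Trem2-/- library at 93.8 (103 in B cell-like cells) and in B cell-like cells of the Trem2+/+ library at 115 (139 in neutrophil-like cells). Uqcrfs1, the Rieske iron-sulfur protein that accepts electrons from ubiquinol, was highest in cDC1-like cells at 227 and 225, with 223 and 203 in monocyte-like and 102 and 113 in endothelial-like cells. Members of 1 complex therefore did not share 1 order of cell types.

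Cox5a stood out most among the complex IV genes. It encodes a matrix-facing subunit of cytochrome c oxidase that joins early in assembly, and lies at chr9:57521274-57532426 (mm10, plus strand, 5 exons). In Kupffer-like cells Cox5a was at 1049 and 1038 CPM (intervals 977 to 1125 and 956 to 1124), from 792 and 604 UMIs. Macrophage-like cells came next at 542 and 546, then cDC2-like cells at 378 and 394, monocyte-like cells at 360 and 347 and NK or ILC1-like cells at 352 and 338. It was 317 and 316 in cDC1-like cells, 285 and 293 in T cell-like cells, 283 and 291 in endothelial-like cells, 177 and 189 in B cell-like cells and 101 and 97.4 in neutrophil-like cells. Kupffer-like cells held 3.30 and 3.28 times the median of the other classes and macrophage-like cells 1.71 and 1.72 times. The intervals of Kupffer-like and macrophage-like cells lay apart from each other and from those of the classes below, whereas cDC2-like, monocyte-like and NK or ILC1-like cells overlapped, as did T cell-like and endothelial-like cells.

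After the summed level of the other members was allowed for, Cox5a in Kupffer-like cells was still 1.495 and 1.41 higher on the log2 scale. Of Kupffer-like cells, 83.0% and 80.6% held at least 1 Cox5a UMI, at medians of 2729 and 2583 UMIs per cell. Cells with at least 1000 UMIs were then thinned to 1000 each, and cells with fewer were left out. The shares were 58.2% and 59.0% of 158 and 139 Kupffer-like cells and 37.8% and 38.4% of 331 and 1080 macrophage-like cells. They were 15.4% to 29.8% in 7 other classes and 8.95% in neutrophil-like cells of both libraries. All 3 macrophage-like clusters were near each other, at 489 and 499 in cluster 7, 567 and 617 in cluster 13 and 584 and 610 in cluster 21. The unnamed cluster 10, which carried markers of both endothelial and Kupffer cells, was at 577 and 618.

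The other complex IV genes differed less. Complex IV made up 29.8% and 29.2% of the members' UMIs in Kupffer-like cells, 29.3% and 29.5% in neutrophil-like cells and 23.6% and 23.8% in B cell-like cells. Cox6a1, the broadly used isoform of subunit VIa, was highest in endothelial-like cells at 687 and 682 CPM, with 448 and 522 in Kupffer-like cells, 363 and 391 in macrophage-like cells and 142 and 152 in neutrophil-like cells. Ndufa4, first described with complex I and now assigned to complex IV, was also highest in endothelial-like cells, at 585 and 649. Cox8a had the narrowest range, from 509 and 546 in neutrophil-like cells to 1004 and 1050 in NK or ILC1-like cells.

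In ATP synthase the widest range was that of Atp5g2, which is 1 of 3 genes whose products are cleaved to the same c subunit of the rotor ring. Atp5g2 was at 650 and 785 CPM in cDC1-like cells, 610 and 612 in cDC2-like cells, 432 and 478 in endothelial-like cells and 58.1 and 78.7 in neutrophil-like cells. The mix of the 3 genes differed between classes. Atp5g2 gave 53.0% and 51.4% of their UMIs in B cell-like cells (intervals 50.3 to 55.7 and 48.7 to 54.1), 57.6% and 61.6% in mature DC-like cells, and 37.9% and 38.1% in monocyte-like cells (36.1 to 39.6 and 36.3 to 39.9). Over all kept cells Atp5g1 gave 18.6% and 18.9% and Atp5g3 gave 38.1% and 37.0%. The T cell-like share of Atp5g2 was 45.5% in the Trem2-/- library and 49.2% in the Trem2+/+ library, and the cDC1-like share was 44.9% and 49.1%. The T cell-like class was not made of the same clusters in both libraries: cluster 17 was 16.97% and 33.2% of it and cluster 4 was 36.3% and 30.01%. Atp5g2 stood at 611 and 756 CPM in cluster 17 and at 598 and 654 in cluster 4, and the part of cluster make-up in the difference between the T cell-like shares was not tested.

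Patterns differed between single subunits of the 2 stalks of ATP synthase, also within the stationary stalk. Atp5d, the delta subunit of the central stalk, was at 234 and 232 CPM in endothelial-like cells and 232 and 292 in Kupffer-like cells, against 438 and 471 in NK or ILC1-like and 405 and 406 in cDC1-like cells. Atp5c1, the gamma subunit that turns inside the head, was at 192 and 202 in endothelial-like cells and 424 and 410 in cDC1-like cells. Both subunits rotate with the ring. Of the stationary stalk, Atp5h and Atp5j were highest in endothelial-like cells at 717 and 727 and at 524 and 537. Atp5f1, also of that stalk, was instead highest in cDC1-like cells at 328 and 354. Atp5o, a further part of it, was highest in Kupffer-like cells at 249 and 235. ATP synthase as a group gave 28.8% and 29.0% of the members' UMIs in endothelial-like cells and 35.4% and 35.2% in cDC1-like cells. Atp5l, a subunit at the interface between ATP synthase dimers, had the narrowest range, with 336 and 388 in B cell-like, 378 and 416 in neutrophil-like and 598 and 694 in endothelial-like cells. It is the 1 member with a near-identical copy that is also counted in the matrices, and has 9 near copies among annotated genes, so its reads could have been divided or dropped. Near copies that the matrices do not count exist for 16 other members, among them Uqcrb, Atp5h, Atp5g2, Atp5c1, Ndufb11, Ndufs6 and Ndufab1, and their levels are uncertain to that extent.

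Cox7a2l, which links complexes III and IV into supercomplexes and is known to be shortened in C57Bl6/J mice, was measured in every class. Its levels were 304 and 266 CPM in cDC2-like cells, 243 and 304 in T cell-like cells, 220 and 211 in macrophage-like cells, 229 and 220 in B cell-like cells and 63.9 and 83.2 in neutrophil-like cells. Outside neutrophil-like cells the class order differed between libraries.

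Hepatocyte and endothelial transcripts were not spread evenly over the classes. The 9 hepatocyte markers summed to 480 and 391.8 CPM in endothelial-like cells, 126 and 108 in Kupffer-like cells and 9.51 to 82.4 in the other 8 main classes. All 9 were seen in endothelial-like cells of the Trem2-/- library and 8 in the Trem2+/+ library, where Mup3 was at 0; in Kupffer-like cells Mup3 was at 0 in both. The 9 endothelial markers summed to 10719 and 9916 in endothelial-like cells, 552 and 421 in Kupffer-like cells and 24.5 to 214 elsewhere. Endothelial-like and Kupffer-like cells are also the classes highest in the respiratory chain genes, and the part of hepatocyte RNA in that was not tested.

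**Figure D4:**
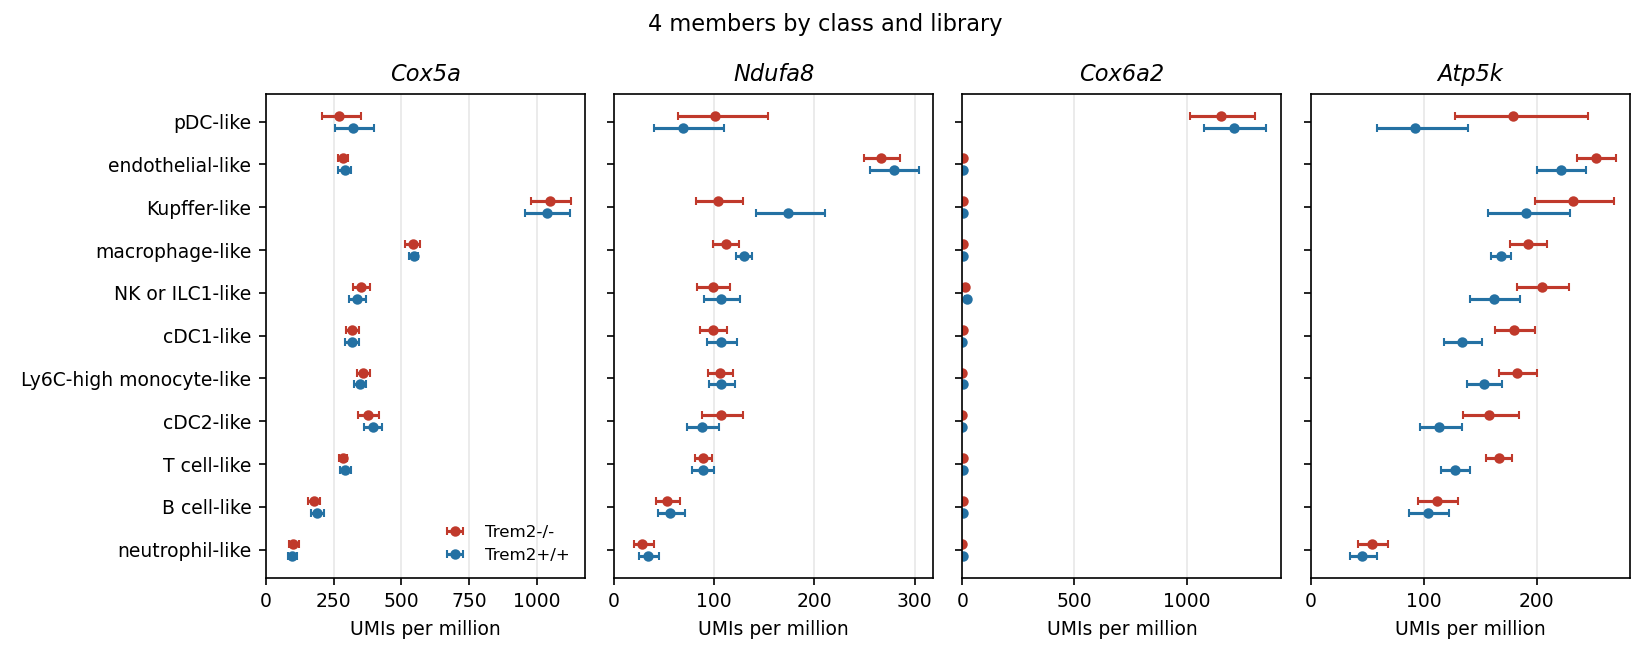
Levels (CPM) of Cox5a, Ndufa8, Cox6a2 and Atp5k in the 10 main classes and pDC-like cells of both libraries, with exact Poisson intervals as bars. Cox5a peaks in Kupffer-like cells, Ndufa8 in endothelial-like cells and Cox6a2 in pDC-like cells, and Atp5k is higher in the Trem2-/- library in each of the classes drawn.

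Among the tissue-restricted isoforms, Cox6a2 was prominent in plasmacytoid dendritic cell-like (pDC-like) cells. Cox6a2 is the isoform of subunit VIa known from heart and skeletal muscle, and lies at chr7:128205435-128206387 (mm10, minus strand, 3 exons). It stood at 1155 and 1211 CPM in pDC-like cells (intervals 1016 to 1307 and 1078 to 1356), from 251 and 301 UMIs in 40 and 68 cells. Cox6a1 in the same cells was at 331 and 318, so Cox6a2 gave 77.7% and 79.2% of the UMIs of both isoforms (72.8 to 82.1 and 74.8 to 83.2). At least 1 Cox6a2 UMI was found in 28 of 40 (70.0%) and 44 of 68 (64.7%) pDC-like cells. Among the 38 and 48 pDC-like cells with at least 1000 UMIs, thinned to 1000 each, the shares were 42.1% and 43.8%. In endothelial-like cells a UMI was found in 1 of 961 (0.104%) and 1 of 675 cells (0.148%), with 5 and 1 UMIs in all. Median depths were 2959 and 2271 UMIs there, against 6156.5 and 2792 in pDC-like cells. Cox6a2 was among the variable genes used for clustering and among the top 10 genes of the pDC-like cluster, so its level there is a description of that cluster. The only other member among the variable genes was Cox4i2.

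Outside pDC-like cells Cox6a2 was rare. It was at 12.54 and 18.99 CPM in NK or ILC1-like cells, or 3.93% and 5.53% of both isoforms, with a UMI in 2.44% and 2.06% of cells. In monocyte-like cells, with deeper profiles, it was found in 0 of 368 and 1 of 450 cells, and the count of 0 (3 counts of the total) allows a share of cells with a UMI of up to 0.815%, which does not limit cells that express the gene below detection. Cycling-like cells held 40 and 9 Cox6a2 UMIs, in 4 of 92 and 2 of 158 cells; 38 of the 40 were in cluster 16, which had none in the Trem2+/+ library. The higher sum in the Trem2-/- library thus rests on 4 cells.

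The other 7 isoforms were scarce throughout. Cox6b2, known from testis, reached 19.03 and 23.4 CPM in cDC2-like cells, 4.52% and 5.87% of the UMIs of Cox6b1 and Cox6b2 together, and at most 8.07 in the other main classes. Ndufa4l2, known as a hypoxia-induced relative of Ndufa4, had 3 and 10 UMIs in all; 1 and 7 of them were in stellate or fibroblast-like cells, a class of 13 and 14 cells. Cox4i2, an isoform known from lung, had 3 and 14 UMIs against 20241 and 25297 of Cox4i1. Cox7a1 had 34 and 66, Cox8b 0 and 1, and Cox7b2 and Cox8c had none.

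Between the marrow genotypes the differences in these genes were small. The summed level of the 93 genes was 19108 and 19880 CPM over all kept cells, a log2 ratio (Trem2-/- over Trem2+/+ library) of -0.06 (interval -0.06 to -0.05). In macrophage-like cells, a type known to express Trem2, it was 21020 and 21912 (-0.06, -0.07 to -0.05). The ratio was -0.05 in cluster 7 and -0.06 in cluster 21 of that class, but 0.095 (0.03 to 0.16) in cluster 13, with a median of 701.5 UMIs. Cluster 13 held 23.8% and 30.7% of the class and cluster 21 held 41.7% and 29.6%. Monocyte-like (-0.01, -0.03 to 0.01), T cell-like (0.00), NK or ILC1-like (-0.02), cDC1-like (-0.03) and endothelial-like cells (-0.04) had ratios near 0. The ratio was -0.11 in Kupffer-like cells (-0.14 to -0.08) and -0.15 in neutrophil-like cells (-0.19 to -0.11). Kupffer-like cells gave 0.01 when all deposited barcodes were clustered. Larger ratios were seen in stellate or fibroblast-like cells (-0.73, 13 and 14 cells) and cholangiocyte-like cells (-0.32, 12 and 19 cells). The libraries differed in make-up, with 391 and 1397 macrophage-like, 1562 and 1003 T cell-like and 961 and 675 endothelial-like cells. Ratios over all kept cells mix the classes in these unlike proportions, and the part of make-up in them was not tested.

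In macrophage-like cells 0 of the 80 measured genes was 1.5-fold higher or lower, beside 1.58% and 1.19% of all 5454 genes measured there. The median log2 ratio over the 80 was -0.05, against -0.00 over all genes; 27 were above 0 and 53 below. By complex, the medians were -0.07 for complex I subunits and complex II, -0.05 for complex III, -0.10 for complex IV and -0.04 for ATP synthase. Over all kept cells 21 genes were above 0 and 60 below, and again 0 of 81 passed 1.5-fold (4.62% of all genes higher and 1.86% lower). The median log2 ratio over all genes was 0.06 there, and the classes are mixed in unlike proportions.

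Among the lowest ratios in macrophage-like cells were Ndufaf8, an assembly factor (48.8 and 63.4 CPM, log2 -0.38, -0.66 to -0.10), and Ndufa4 (291 and 356, -0.29, -0.40 to -0.18). Ndufv1, the core subunit that binds NADH, was at 51.3 and 62.5 (-0.28). The accessory subunits Ndufb8 (206 and 242, -0.23), Ndufb11 (143 and 168, -0.23) and Ndufs6 (93.6 and 109, -0.22) completed the 6 lowest. The highest were Ndufa3 (321 and 259, 0.31, 0.20 to 0.42), Ndufa10 (95.1 and 80.0, 0.25) and Atp5k (192 and 168, 0.19, 0.05 to 0.34), followed by Ndufs4 at 0.15, and Ndufa5 and Ndufs1 at 0.13. Subunits of the same complex thus stood at both ends, and the sizes were under 1.5-fold throughout.

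**Figure D5:**
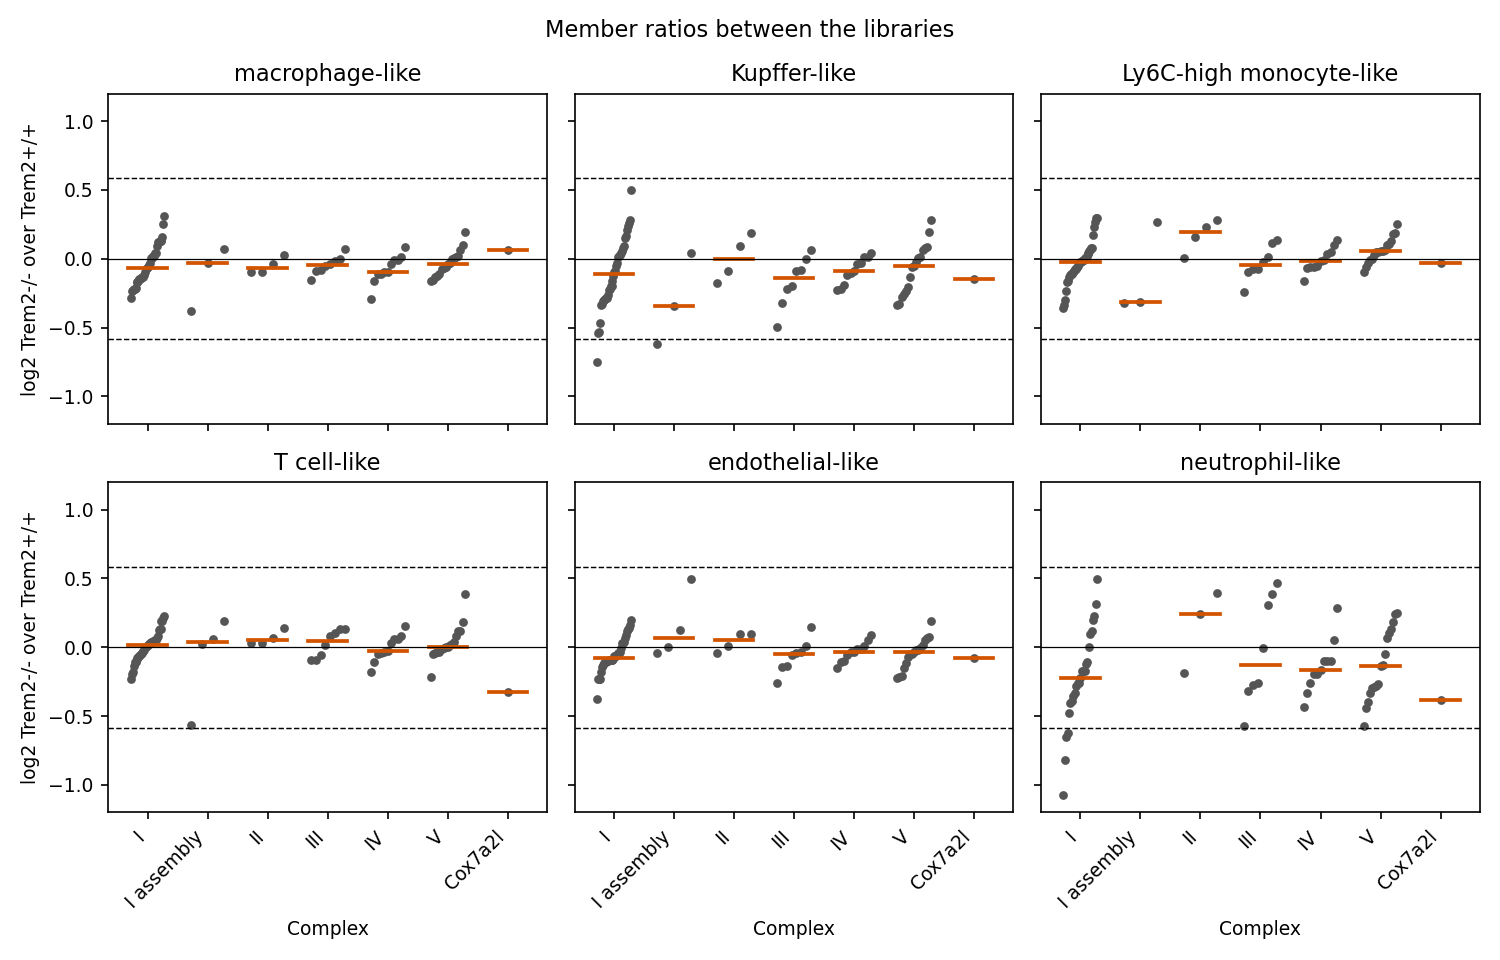
Log2 ratio of the level in the Trem2-/- over the Trem2+/+ library for each measured gene, by complex, in 6 classes; the orange line is the group median and dashed lines mark 1.5-fold. In macrophage-like cells every point lies inside the dashed lines, and in Kupffer-like and neutrophil-like cells, with fewer UMIs, the points spread wider.

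In Kupffer-like cells 2 of 80 genes were at least 1.5-fold lower (5.71% of all genes) and 0 higher (9.75%). They were Ndufa8 (103 and 173 CPM, -0.75, -1.19 to -0.31, from 78 and 101 UMIs) and the assembly factor Ndufaf3 (21.2 and 32.6, -0.62, -1.68 to 0.41, from 16 and 19 UMIs). Ndufa2, an accessory subunit of complex I, followed at 309 and 448 (-0.54, -0.80 to -0.28), and the highest were Ndufv1 (43.7 and 30.9, 0.50, -0.37 to 1.42) and Atp5k (232 and 191, 0.28). In neutrophil-like cells 4 of 65 were 1.5-fold lower (4.98% of all genes) and 0 higher (3.9%), all of complex I. They included Ndufab1, the mitochondrial acyl carrier protein (14.9 and 31.5, -1.08, from 18 and 42 UMIs), Ndufb2 (-0.65) and Ndufb3 (-0.62). The highest neutrophil-like ratios were those of Ndufv2 (0.50) and Uqcrb (0.47), each with an interval that included 0. The 2 of 80 in Kupffer-like cells are a smaller share than that of all genes, and the 4 of 65 in neutrophil-like cells are near it.

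In the other 7 main classes 0 of 79 to 82 measured members passed 1.5-fold in either direction. All genes did so, higher and lower, in 4.17% and 2.18% in B cell-like, 1.3% and 1.24% in monocyte-like, 4.32% and 2.13% in NK or ILC1-like and 3.64% and 0.555% in T cell-like cells. The shares were 1.66% and 1.33% in cDC1-like, 4.72% and 3.62% in cDC2-like and 1.34% and 1.12% in endothelial-like cells. The genes at the ends of the range differed by class. Uqcr10, a small complex III subunit, was at 118 and 161 in B cell-like cells (-0.45) and Ndufc2 of complex I at 167 and 211 in monocyte-like cells (-0.34). Uqcrh, the hinge protein of complex III, was at 527 and 631 in NK or ILC1-like cells (-0.26). Cluster 5 made up 42.3% and 19.2% of that class, and Uqcrh was at 465 and 602 in cluster 5 and at 565 and 638 in cluster 8, the rest of the class. In T cell-like cells Ndufaf4 (28.2 and 41.7, -0.57, -0.92 to -0.21) and Cox7a2l (243 and 304, -0.32, -0.45 to -0.20) were lowest. In cluster 17 of that class, which held 16.97% and 33.2% of its cells, Ndufaf4 was at 32.7 and 46.0 and Cox7a2l at 349 and 346; in cluster 4 they were at 27.0 and 35.8 and at 229 and 286. In endothelial-like cells Ndufaf2, an assembly factor, was highest (49.8 and 35.4, 0.49, 0.07 to 0.93).

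Over all kept cells the highest ratio was that of Ndufaf2 (22.8 and 17.9 CPM, 0.35, 0.17 to 0.53), which stood just above the minimum level, and the next that of Atp5k. Atp5k encodes subunit e, a small membrane subunit needed for ATP synthase dimers, at chr5:108433244-108434448 (mm10, minus strand). It has 1 near copy among annotated genes that the matrices do not count. Over all kept cells Atp5k was at 182 and 149 CPM (log2 0.29, 0.23 to 0.35). The ratio was 0.47 in cDC2-like, 0.42 in cDC1-like, 0.39 in T cell-like, 0.34 in NK or ILC1-like, 0.28 in Kupffer-like and 0.25 in monocyte-like cells. It was 0.24 in neutrophil-like, 0.19 in macrophage-like and endothelial-like and 0.11 in B cell-like cells. Ndufa3 was at 319 and 268 over all kept cells (0.25, 0.21 to 0.30), with ratios of -0.04 in B cell-like and -0.03 in Kupffer-like cells and 0.19 to 0.41 in the other 8. At the other end, Cox4i1, the subunit through which adenine nucleotides are known to regulate complex IV, was at 814 and 943 over all kept cells (-0.21, -0.24 to -0.19). Its ratio ran from -0.05 in T cell-like to -0.33 in neutrophil-like cells (326 and 410), with 990 and 1110 (-0.16) in macrophage-like cells. All classes come from the same 2 libraries, so a like ratio in several classes is not repeated evidence.

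The lists of related genes also differed little in macrophage-like cells. There the 13 mitochondrially encoded subunits had a median ratio of 0.04, the assembly factors outside the rule 0.06 (21 of 45 measured), the tricarboxylic acid cycle enzymes -0.00 (16 of 18), and the electron carriers and entry points -0.04 (8 of 18). For the adenine nucleotide, phosphate and outer membrane carriers it was -0.03 (7 of 7), and for the regulators of mitochondrial biogenesis -0.03 (4 of 15). No gene of these lists was 1.5-fold apart in macrophage-like cells. In Kupffer-like cells 5 of 22 measured assembly factors were at least 1.5-fold lower (5.71% of all genes), among them Sdhaf1 (17.2 and 39.5 CPM, -1.198) and Cox16 (86.1 and 134, -0.64). Sdhaf1 was under 20 CPM in the Trem2-/- library, and neither intervals nor the count on the higher side are given here. Ratios of this class also depended on which cells it took in. The mitochondrially encoded subunits summed to a ratio of 0.26 there. In neutrophil-like cells the mitochondrially encoded subunits summed to 0.525% and 0.749% of UMIs (-0.51), with 13 of 13 below 0 and 6 at least 1.5-fold lower (4.98% of all genes).

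The libraries also differed in genes that respond to tissue dissociation. The 18 genes of that list summed to a log2 ratio of 0.17 in macrophage-like, 0.37 in Kupffer-like, 0.38 in T cell-like and endothelial-like and -0.05 in neutrophil-like cells. Hspa1a, an inducible heat shock protein, was at 135 and 54.9 CPM in macrophage-like cells (1.29, 1.09 to 1.49). Ribosomal protein genes were at a ratio of -0.26 in T cell-like, -0.22 in Kupffer-like and -0.23 in neutrophil-like cells and 0.02 in macrophage-like cells. Cluster 17, whose share of the T cell-like class was 16.97% and 33.2%, held 36.8% and 39.1% ribosomal UMIs, against 3.38% to 27.1% in the other T cell-like clusters. The part of these shifts in the ratios of the respiratory chain genes was not tested.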

How the data were processed

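Single-cell libraries of sorted liver cells were deposited as raw UMI counts per gene and barcode, which the authors made with Cell Ranger; per the file headers its version was 5.0.1, and the genome, mm10, comes from the submitters' processing notes. The annotation release was not given in the sources used here. Coordinates are from GENCODE M21. The members, groups and lists were chosen with earlier results of these data known. Barcodes under 200 genes or over 10% mitochondrial UMIs were dropped. Scrublet called 4 and 2 doublets, under 0.5% of barcodes, so doublets were in effect not removed. Cells were clustered with scanpy 1.11.5 and igraph 0.11.9 (2000 variable genes, 30 components, 15 neighbours, Leiden resolution 1, no integration of the libraries) and clusters named from marker lists. Genes whose symbols start with Trem were kept out of the variable genes. Trem2 was still among the 12 macrophage markers used for naming, and among the top 10 genes of macrophage-like cluster 13. For each class and library, UMIs were added up and given as CPM (UMIs out of 1000000). With 1 library per group no test was run; ratios carry exact conditional binomial intervals (scipy 1.17.1). The calculation was tested on simulated data. A gene counted as measured at a mean of 20 CPM. Named genes are those with the 6 highest and 6 lowest ratios in the macrophage-like class, the 2 at either end in every other main class (at least 50 UMIs), the widest and narrowest range per group, every tissue-restricted isoform and genes named for their role; not all of them are printed. Near copies are other genes of GENCODE M21 with a transcript match of at least 95% identity and 100 bases, covering 50% of the member's transcript. They were found for 17 of the 93 genes. Genes within 10000 bases of the member were left out, and copies outside the annotation were not searched. Alternatives changed the cell filter, doublets, resolution, variable genes, totals, centring, weighting of cells and clusters and the level minimum. Values of 1 gene are not reported here by name, though it is part of the counts and sums.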

Additional observations from a re-analysis of the deposited data

How the results depend on the processing

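The log2 ratio of the summed genes in macrophage-like cells (-0.06) was -0.0792 with all deposited barcodes, -0.0341 with the stricter cell filter, -0.102 with the members kept out of the variable genes, -0.0988 at resolution 2, -0.00132 as a mean over cells and -0.00566 with clusters weighted equally. At resolution 0.5 no macrophage-like or cDC2-like class formed, so no value was given there. The monocyte-like class there held 632 and 1333 cells, against 368 and 450 in the main clustering. Gpnmb, a macrophage marker, was among its top 10 genes. The Kupffer-like class there held 339 and 698 cells, against 194 and 165. Values of these classes at resolution 0.5 are therefore not for the same cells as in the main clustering. In macrophage-like cells the stricter filter put 1 gene past 1.5-fold, Ndufa10 at 0.64, where the main count was 0. For Kupffer-like cells (-0.11) the ratio turned to 0.0147 with all deposited barcodes; it was -0.0331 with the stricter filter, -0.0147 at resolution 0.5, -0.0645 at resolution 2, -0.15 centred on the median of all genes and -0.0697 as a mean over cells. For monocyte-like cells (-0.01) it was -0.0504 with the stricter filter, -0.032 with the members kept out of the variable genes, -0.0769 at resolution 0.5, -0.0442 at resolution 2 and -0.0387 as a mean over cells. Over all kept cells (-0.06) centring gave -0.119. As a mean over cells, the cDC1-like ratio turned to 0.00432 and that of Ndufv1 in macrophage-like cells to 0.0809. The causes were not tested. Of 113 alternative values of summed ratios in all classes, 80 moved by less than counting error. For the summed level of a class against the other classes, 71 of 176 did so and 105 moved further. In the Trem2+/+ library that log2 level crossed 0 in macrophage-like (-0.04 to 0.26), T cell-like (-0.20 to 0.04), monocyte-like (-0.14 to 0.15), cDC1-like (-0.06 to 0.13) and Kupffer-like cells (-0.48 to 0.28). It kept its sign in the others, such as B cell-like (-0.58 to -0.41) and endothelial-like cells (0.14 to 0.36). Over the alternatives the count of genes 1.5-fold lower ran from 0 to 5 in Kupffer-like and from 2 to 8 in neutrophil-like cells. In macrophage-like cells Ndufs1 ran from -0.55 to 0.27 and Ndufs4 from -0.13 to 0.33, whereas Ndufa3 ran from 0.18 to 0.56, Atp5k from 0.17 to 0.33 and Ndufa4 from -0.41 to -0.17. Leaving out clusters with a median under 1000 UMIs, an alternative chosen after seeing the data, gave -0.07 in macrophage-like, -0.08 in endothelial-like (-0.04 with them) and 0.01 in T cell-like cells. The T cell-like ratio (0.00) was -0.109 with mitochondrial, ribosomal and haemoglobin genes out of the totals, -0.103 centred on the median of all genes and -0.0605 as a mean over cells; the NK or ILC1-like ratio (-0.02) was -0.0672 and -0.0582 under the former pair. The level in neutrophil-like cells against the other classes stayed between -1.86 and -1.41 (log2). No paired analysis was possible because each group is 1 library. Depth limits sparse genes most: the interval of Ndufaf3 in Kupffer-like cells, from 16 and 19 UMIs, ran from -1.68 to 0.41.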
